A study of Mus musculus with 6 samples.

Results

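The genes described here are 9 members of the retinoic acid pathway: the receptor genes Rara, Rarb and Rarg, the binding protein genes Crabp1 and Crabp2, the synthesis enzyme genes Aldh1a2 and Aldh1a3, the retinol uptake receptor gene Stra6 and the retinoic acid hydroxylase gene Cyp26a1. They were chosen by gene symbol, with earlier results of these data known. They are measured by 18 of the 34885 probes that carry a single symbol, among 45281 probes in all. RNA came from mouse embryonic stem (ES) cells on 6 single-colour Illumina bead arrays. Of these, 3 are labelled as control transfections, with no further account of what the control was, and 3 as transfections with short hairpin RNA against Chd4 (shChd4), the ATPase subunit of the NuRD chromatin complex, which was delivered in the pHYPER vector. Both groups were electroporated, put under puromycin from 24 h after transfection for 48 h, and grown with leukemia inhibitory factor and 15% serum on mouse embryonic fibroblasts inactivated with mitomycin C. The labels name no ES cell line, give no sort that would remove the feeder fibroblasts and leave unsaid whether the arrays of a group stem from different cultures. They also do not say whether the 3 shChd4 samples, whose sample ids differ, received the same hairpin, and these are treated here as 1 group. The p-values therefore reflect array-to-array spread alone, which may be technical.

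Retinol enters some cells through the receptor Stra6 and is oxidised to retinaldehyde by alcohol and retinol dehydrogenases, and retinaldehyde dehydrogenases such as Aldh1a2 and Aldh1a3 turn that into retinoic acid. In the cytoplasm retinoic acid is carried by the small proteins Crabp1 and Crabp2, and enzymes of the Cyp26 family inactivate it. In the nucleus it binds the receptors Rara, Rarb and Rarg, which pair with retinoid X receptors on DNA elements made of repeated half-sites. Added retinoic acid is a classical way to make mouse ES cells differentiate, and Rarb and Cyp26a1 are known for being induced by it through such elements close to their start sites.

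The promoter sequences of Rarb and Cyp26a1 are shown because their element is the textbook example of direct control by retinoic acid, and those of Crabp1 and Rarg because these genes changed on the arrays. RefSeq promoter windows (assembly GRCm38.p6, 250 bases before to 50 after the start site) were held for 7 of the 9 genes; Crabp2 and Aldh1a3 are named only. Each line gives the 250 bases before the start, 5′ to 3′ in the direction of transcription. Capitals mark a DR5 element in the lines for Rarb (chr14:16575477-16575726, minus strand) and Cyp26a1 (chr19:37697558-37697807, plus strand). In the lines for Crabp1 (chr9:54764498-54764747, plus strand) and the upstream start of Rarg (chr15:102257523-102257772, minus strand), capitals mark GGGCGG boxes on either strand.
Rarb: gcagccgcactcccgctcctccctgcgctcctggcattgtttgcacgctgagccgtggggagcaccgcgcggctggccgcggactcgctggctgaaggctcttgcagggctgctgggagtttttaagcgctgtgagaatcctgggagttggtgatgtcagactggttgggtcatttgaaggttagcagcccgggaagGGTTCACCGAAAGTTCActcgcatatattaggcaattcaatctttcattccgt
Cyp26a1: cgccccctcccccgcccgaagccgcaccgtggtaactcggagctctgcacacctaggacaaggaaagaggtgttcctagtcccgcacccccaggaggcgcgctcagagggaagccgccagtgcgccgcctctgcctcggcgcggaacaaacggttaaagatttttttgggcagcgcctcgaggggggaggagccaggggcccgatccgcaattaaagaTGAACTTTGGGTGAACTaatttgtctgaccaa
Crabp1: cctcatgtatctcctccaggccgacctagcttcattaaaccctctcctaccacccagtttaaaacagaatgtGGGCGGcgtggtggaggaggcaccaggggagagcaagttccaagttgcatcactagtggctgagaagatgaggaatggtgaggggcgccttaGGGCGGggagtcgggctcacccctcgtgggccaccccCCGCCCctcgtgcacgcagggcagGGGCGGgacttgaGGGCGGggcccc
Rarg: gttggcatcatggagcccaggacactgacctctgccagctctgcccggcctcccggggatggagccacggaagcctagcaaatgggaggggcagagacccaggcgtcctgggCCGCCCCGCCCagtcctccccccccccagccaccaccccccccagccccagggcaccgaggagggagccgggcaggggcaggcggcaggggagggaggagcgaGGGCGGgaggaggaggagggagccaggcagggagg

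A DR5 element was searched as 2 half-sites in the same orientation with 5 bases between them, on both strands. The half-site was AGGTCA or its variant GGGTCA. The further variants AGTTCA and the like-built GGTTCA were accepted too. Rarb held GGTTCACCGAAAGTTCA at positions -53 to -37 from its start, and Cyp26a1 held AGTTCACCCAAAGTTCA on the opposite strand at -32 to -16. Of all 32851 promoter windows, 0.0974% held such an element, from 31 genes. The other 12 windows of these genes, among them those of Rara, Rarg, Crabp1, Aldh1a2 and Stra6, held none, and none of the 14 windows held the same half-sites spaced by 1 or 2 bases. That says only that these letters are not in these windows. The GGGCGG box occurred 5 times before the start of Crabp1 and 3 times before that of Rarg, where 2 matches overlap by 1 base, and was present in 35.7% of all windows.

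The 6 arrays are described by a few facts. Detection p-values under 0.05 were reached by 34.9% to 35.6% of probes in the controls and 37.7% to 38.7% on the shChd4 arrays. Chd4 has 4 probes. The brightest was lower on every shChd4 array, with a log2 change of -2.04 ± 0.16 (SE, n = 3 per group; limma adjusted p = 6.33e-06). The next brightest differed by -1.26 and -1.86, and the dimmest, detected on 2 arrays, by 0.34. A gene was tested if its brightest probe was detected on at least 3 of the 6 arrays, which 9808 of 19057 named genes were (51.5%). Of these, 38.1% had a limma adjusted p under 0.05, 19.9% being higher and 18.2% lower after shChd4. Levels are log2 intensities after background correction and quantile normalisation, and changes are shChd4 minus control on that scale; the median change of all genes tested was -0.05. All 3 controls were hybridised on 1 BeadChip and all 3 shChd4 samples on a different one, and an effect of the chip cannot be told apart from that of the group.

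The 2 binding protein genes rose and the receptor genes Rarg and Rara fell, Rara from a level near background to no detection. The remaining 5 genes lay at or near background in both groups. Of the 9 genes, 5 passed the detection filter, and of those 5, Crabp1, Crabp2, Rarg and Rara passed the test while Aldh1a2 did not. Beside 4 of 5 stands the share of 38.1% over all genes tested. The 2 shares are no test of the members, as these were chosen with earlier results of these data known. Of the 4, Rara entered the test only through its control arrays. In the same 4 genes the control and shChd4 arrays did not overlap, which was so for 50.3% of all genes tested. As these are arrays of whole cultures, fewer cells of a type and less RNA per cell cannot be told apart.

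**Figure D1:**
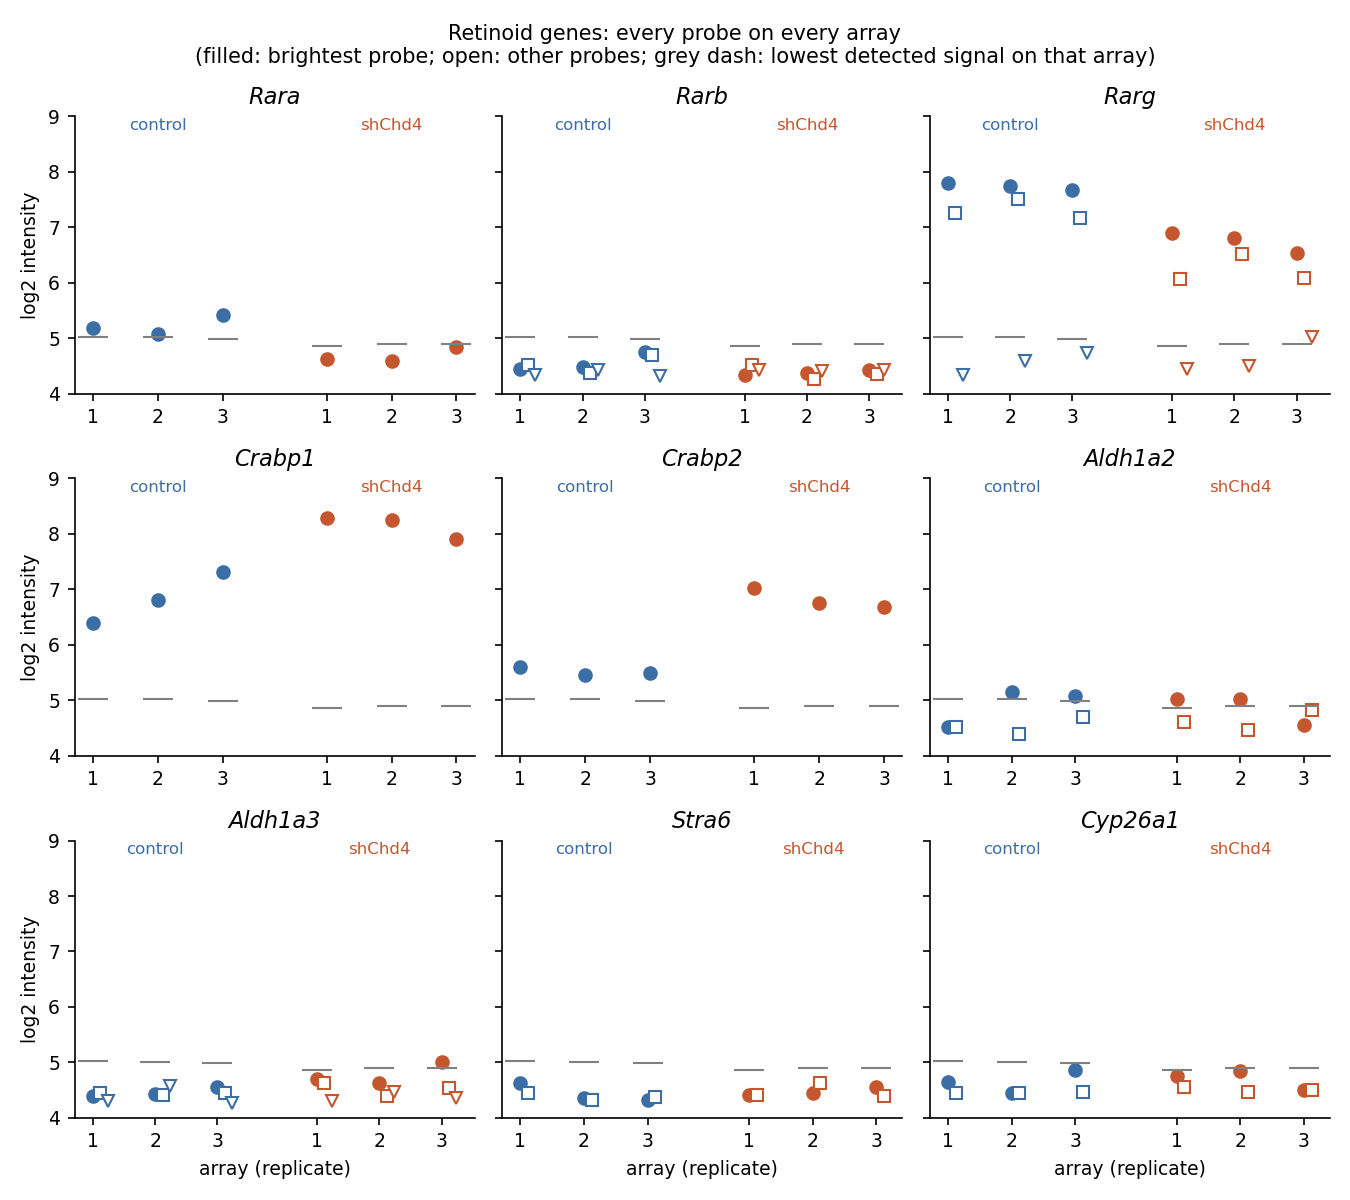
Log2 intensity of every probe of the 9 retinoid genes on each of the 3 control and 3 shChd4 arrays; filled symbols are the brightest probe of a gene, open symbols its other probes, and grey dashes the lowest detected signal on that array. The Crabp1 and Crabp2 probes and the 2 brighter Rarg probes separate the groups and lie above the dashes on every array, whereas the probes of Rarb, Stra6 and Cyp26a1 stay below them on every array.

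Crabp1 encodes cellular retinoic acid binding protein 1, which holds retinoic acid in the cytoplasm and is linked to its breakdown. Its only probe read 6.39, 6.80 and 7.31 in control replicates 1, 2 and 3, as against 8.28, 8.25 and 7.91 in shChd4 replicates 1, 2 and 3. All shChd4 values lay above all control values, although the controls spread widely (6.83 ± 0.46 against 8.15 ± 0.20; mean ± SD, n = 3 each). The log2 change was 1.31 ± 0.22 (SE; 95% interval 0.82 to 1.81; limma adjusted p = 0.00105), or 2.49-fold. In the scanner's own intensities, before any correction, the probe read 182.1, 184.2 and 252.5 in controls and 434.2, 391.7 and 328.9 after shChd4. Without background correction the change was 0.85 (limma adjusted p = 0.00122).

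Crabp2 encodes the paralog that delivers retinoic acid to the nuclear receptors. Its only probe read 5.60, 5.45 and 5.50 in the controls and 7.03, 6.76 and 6.69 on the shChd4 arrays. The groups were tight and far apart, at 5.51 ± 0.08 and 6.83 ± 0.18 (mean ± SD, n = 3 each). The log2 change was 1.31 ± 0.16 (SE; 95% interval 0.97 to 1.66; limma adjusted p = 9.58e-05), or 2.49-fold. The change was larger than that of Crabp1 in 548 genes and larger than that of Crabp2 in 549, or 5.59% and 5.60% of all genes tested. Before correction the Crabp2 probe read 146.0, 128.8 and 137.0 in controls and 244.1, 202.9 and 197.4 after shChd4, and without background correction its change was 0.57 (limma adjusted p = 0.000769). Its control levels lay 0.43 to 0.57 above the lowest detected signal of their arrays.

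The 2 paralogs differed in how the control arrays varied. Crabp1 was lowest on control array 1 and highest on control array 3, a range from -0.44 to 0.47 around the control mean, whereas Crabp2 stayed between -0.07 and 0.09. After shChd4 both were highest on array 1 and lowest on array 3, at 1.45 and 1.08 for Crabp1 and 1.51 and 1.18 for Crabp2 above the control mean. Both genes passed the test in all 17 alternative settings, with log2 changes from 0.85 to 1.54 for Crabp1 and from 0.57 to 1.44 for Crabp2.

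Rarg encodes the gamma retinoic acid receptor, a ligand-dependent transcription factor. Its brightest probe read 7.79, 7.74 and 7.68 in the controls and 6.90, 6.80 and 6.53 on the shChd4 arrays. Every shChd4 array was below every control array, and the control arrays differed little from each other (7.74 ± 0.06 against 6.74 ± 0.19; mean ± SD, n = 3 each). The log2 change was -0.99 ± 0.16 (SE; 95% interval -1.34 to -0.65; limma adjusted p = 0.000647). A second probe read 7.26, 7.51 and 7.16 in controls and 6.07, 6.52 and 6.08 after shChd4, a change of -1.08 ± 0.18 (SE; limma adjusted p = 0.000792 when each of 14610 detected probes was tested on its own, where 36% passed). The third Rarg probe was detected on 1 shChd4 array and differed by 0.11, with no test. Rarg passed in all 17 alternatives, from -1.08 to -0.61; the smallest change was the one without background correction. A larger fall was found for 381 genes, or 3.88% of those tested.

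Rara encodes the alpha receptor, which is expressed in most tissues. Its only probe read 5.19, 5.07 and 5.41 on the control arrays, where it was detected each time, and 4.62, 4.59 and 4.84 on the shChd4 arrays, where it was not detected. The lowest detected signals of the control arrays were 4.99 to 5.03, so the control levels were near background. Before correction the Rara probe read 134.1, 121 and 134.2 in controls and 118.9, 115.5 and 120.5 after shChd4. The fit gave -0.54 ± 0.16 (SE, n = 3 per group, limma adjusted p = 0.0209). Set against the detection limit of the shChd4 arrays, the signal was at least 1.27-fold lower on the scale reported here. As a log2 change this bound is -0.34, and some alternatives below gave a smaller fall for Rara. This gene entered the test only through its control arrays. Detection on no shChd4 array together with a passed fall was found for 0.357% of all genes tested. As that share is not taken over genes that entered through control arrays alone, it does not show how rare such a fall is. The call was lost in 6 of the 15 alternatives in which Rara could be tested: without background correction (-0.16, limma adjusted p = 0.132), with the authors' deposited values (-0.16, limma adjusted p = 0.133), with an offset of 50 (-0.26, limma adjusted p = 0.0984), and without control array 3 (-0.45, limma adjusted p = 0.0741), shChd4 array 1 (-0.49, limma adjusted p = 0.0673) or shChd4 array 2 (-0.49, limma adjusted p = 0.0573). Its direction was the same in all 15.

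Rarb, the third receptor gene, has 3 probes, and none was detected on any of the 6 arrays. The brightest read 4.45, 4.48 and 4.75 in the controls and 4.34, 4.38 and 4.42 on the shChd4 arrays. Its lowest detection p on any array was 0.0962. The other Rarb probes stayed between 4.27 and 4.69, so no level above background was measurable in either group.

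The synthesis enzymes gave no measurable difference. Aldh1a2, the main retinoic acid synthesising enzyme of the early embryo, had a brightest probe at 4.52, 5.14 and 5.07 in the controls and 5.02, 5.03 and 4.56 on the shChd4 arrays. It was detected on 2 arrays of each group and the groups overlapped fully. The change was -0.04 ± 0.21 (SE; limma adjusted p = 0.904), with a 95% interval from -0.49 to 0.42 that holds both modest falls and modest rises. A second Aldh1a2 probe was not detected on any array and read 4.40 to 4.83. Aldh1a3, a related enzyme, has 3 probes, of which 1 was detected on a single array, shChd4 array 3. That probe read 4.40, 4.43 and 4.56 in controls and 4.70, 4.62 and 5.01 after shChd4. Its groups did not overlap, but nearly all these values lay below the detection limit. With no detection filter its difference was 0.31 ± 0.12 (SE; limma adjusted p = 0.144) and did not pass.

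Stra6 and Cyp26a1, the uptake receptor and the hydroxylase, were not detected on any array by either of their 2 probes. The brighter Stra6 probe read 4.62, 4.36 and 4.32 in controls and 4.41, 4.44 and 4.56 after shChd4. For Cyp26a1 the brighter probe read 4.64, 4.45 and 4.86 in controls and 4.76, 4.85 and 4.50 after shChd4, with overlapping groups. Its scanner intensities of 120.1, 106.0 and 120.0 in controls and 123.7, 122.9 and 110.3 after shChd4 lay close to the array medians of 110.9 to 118.9. With no detection filter neither gene passed (limma adjusted p = 0.910 and 0.887), with differences of 0.03 ± 0.11 and 0.05 ± 0.14 (SE). An undetected probe sets no level for its gene. The 2 genes whose promoter windows hold the DR5 element shown above, Rarb and Cyp26a1, were thus undetected in the control group and in the shChd4 group.

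**Figure D2:**
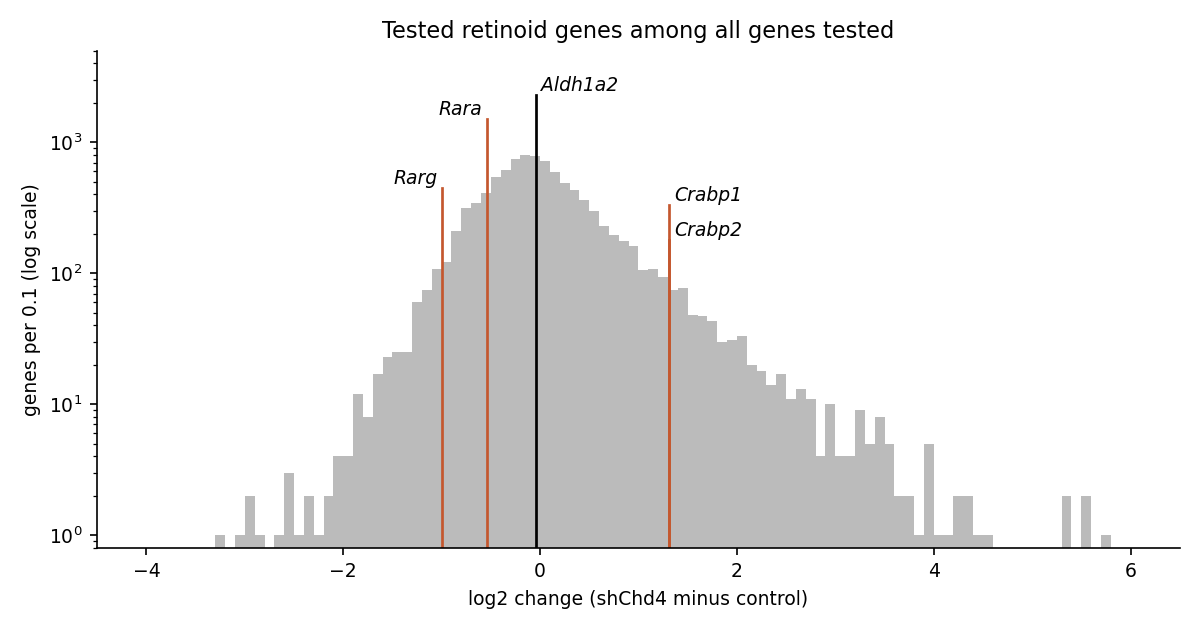
Distribution of log2 changes (shChd4 minus control) over the 9808 genes tested, in bins of 0.1 with a logarithmic count axis; coloured lines mark the 4 retinoid genes that passed the test and the black line Aldh1a2, with line heights chosen only for legibility. Crabp1 and Crabp2 coincide at 1.31, Rarg lies at -0.99 and Rara at -0.54.

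Of the 31 genes with a DR5 element in their promoter window, 9 had a named probe and 3 were tested. These were named for their sequence and not by the rule for naming genes. Blvrb, a biliverdin reductase gene, rose by 0.996 ± 0.179 (SE; limma adjusted p = 0.00142). Cfap45 and Ppbp changed by -0.49 and 0.50 and did not pass (limma adjusted p = 0.0681 and 0.208). With 3 genes tested, 1 passing beside 38.1% of all genes tested, and a median of 0.50, little can be said of this group.

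The partners of these receptors differed among themselves. Rxrb, which encodes the beta retinoid X receptor, read 10.61, 10.75 and 10.83 in controls and 9.88, 10.22 and 10.39 after shChd4. Its change was -0.57 ± 0.17 (SE; limma adjusted p = 0.0236). A second detected probe differed by -0.73, and the remaining one, detected on 1 array, by 0.18. Rxrb did not pass without control array 2, control array 3 or shChd4 array 1. Rxra read 6.86, 7.05 and 7.48 in controls and 6.78, 7.01 and 7.28 after shChd4, so that its groups overlapped and its change of -0.11 ± 0.20 (SE; limma adjusted p = 0.702) did not pass. The probe of Rxrg was detected on 1 array and was not tested. Ppard, a nuclear receptor that can also bind retinoic acid, rose by 0.92 ± 0.25 (SE; limma adjusted p = 0.0127), and did not pass with no detection filter or without shChd4 array 1 or 2. Of 15 listed retinoid X receptors and receptor cofactors, 7 were tested, 1 rose and 1 fell, with a median change of -0.12. The share that passed over all genes tested was 38.1%, with a median of -0.05. Co-activator genes Ncoa3, Ep300, Crebbp and Med1 gave -0.37, 0.29, -0.18 and -0.12 on their brightest probes, and none of them passed. A second Ep300 probe, detected on 3 arrays, differed by -0.53 and a second Crebbp probe by -0.06. Further Med1 probes differed by 0.37 and -0.19, so the direction was not the same across probes for Ep300 and Med1.

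The enzymes that handle retinol and retinaldehyde moved in both directions. Of 23 listed genes, 22 had a named probe and 10 were tested, of which 3 rose, 3 fell and 4 did not pass, with a median of 0.01. Over all genes tested, 19.9% were higher and 18.2% lower. Without control array 2, 3 of the 10 passed. Adh7 and Rdh7 entered the test only through the group in which they were higher. Of the 5 genes detected on all 6 arrays, 2 rose and 2 fell, where 38% of all genes so detected passed. Adh5, an alcohol dehydrogenase with many substrates, read 10.59, 10.45 and 10.29 in controls and 9.40, 9.50 and 9.41 after shChd4, a change of -1.01 ± 0.15 (SE; limma adjusted p = 0.000483). Rdh14 and Rdh11, named as retinol dehydrogenases, rose by 0.73 ± 0.18 (SE, limma adjusted p = 0.00757) and 0.62 ± 0.16 (SE, limma adjusted p = 0.0121). Their second probes differed by 0.37 and 0.27. Adh7, detected on no control array, was at least 1.12-fold higher (limma adjusted p = 0.00206). Dhrs4 fell as well, with a change of -0.65, and Rdh7, detected on no shChd4 array, was at least 1.28-fold lower. The probe of Rdh10, which makes retinaldehyde in the embryo, was detected on 2 arrays, and those of Aldh1a1, Cyp26b1 and Dhrs3 on none.

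Few genes of retinoid uptake and storage were measurable. Of 10 listed, 2 were tested and 1 passed, beside 38.1% of all genes tested. Rbp7, a retinol binding protein, rose by 0.51 ± 0.17 (SE; limma adjusted p = 0.0378), and Dgat1 changed by 0.05 ± 0.16 (SE; limma adjusted p = 0.842). No uptake or storage gene passed with any 1 control array left out, or without shChd4 array 1 or 2. Rbp4, the carrier of retinol in blood, was detected on no array.

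Genes known to respond to retinoic acid were listed without the members. Of 29 listed, 25 had a named probe and 16 were tested. Among these 16, 9 rose and 1 fell, with a median change of 0.97, or 0.70 with 7 genes at their bound. The shares over all genes tested were 19.9% higher and 18.2% lower. Cdx1, a caudal homeobox gene, read 5.10, 5.33 and 5.69 in controls and 7.89, 8.41 and 7.46 after shChd4, a rise of 2.55 ± 0.24 (SE; limma adjusted p = 2.05e-05). The zinc finger gene Zfp703 was at least 4.22-fold higher, Hoxa5 at least 3.10-fold and the homeobox gene Meis1 at least 2.15-fold (limma adjusted p = 3.36e-06, 1.05e-05 and 0.000128). Rarres2, the gene of the secreted protein chemerin, changed by -0.81 ± 0.16 (SE; limma adjusted p = 0.00294) on its brightest probe, whereas a second probe, detected on 3 arrays, differed by 1.52 in the opposite direction. Tgm2 and Meis2 gave -0.39 and 0.36 and did not pass. Hoxb1, a direct retinoic acid target, was detected on no array by either of its probes.

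The count for the responsive genes rests on the detection filter. Of the 9 that rose, 7 were detected on no control array, and such genes could enter the test only by being higher after shChd4. Among the 6 responsive genes detected on all 6 arrays, 1 rose (Cdx1), 1 fell (Rarres2) and 4 did not pass, and the median was -0.02 against -0.09 over all genes so filtered, of which 38% passed.

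**Figure D3:**
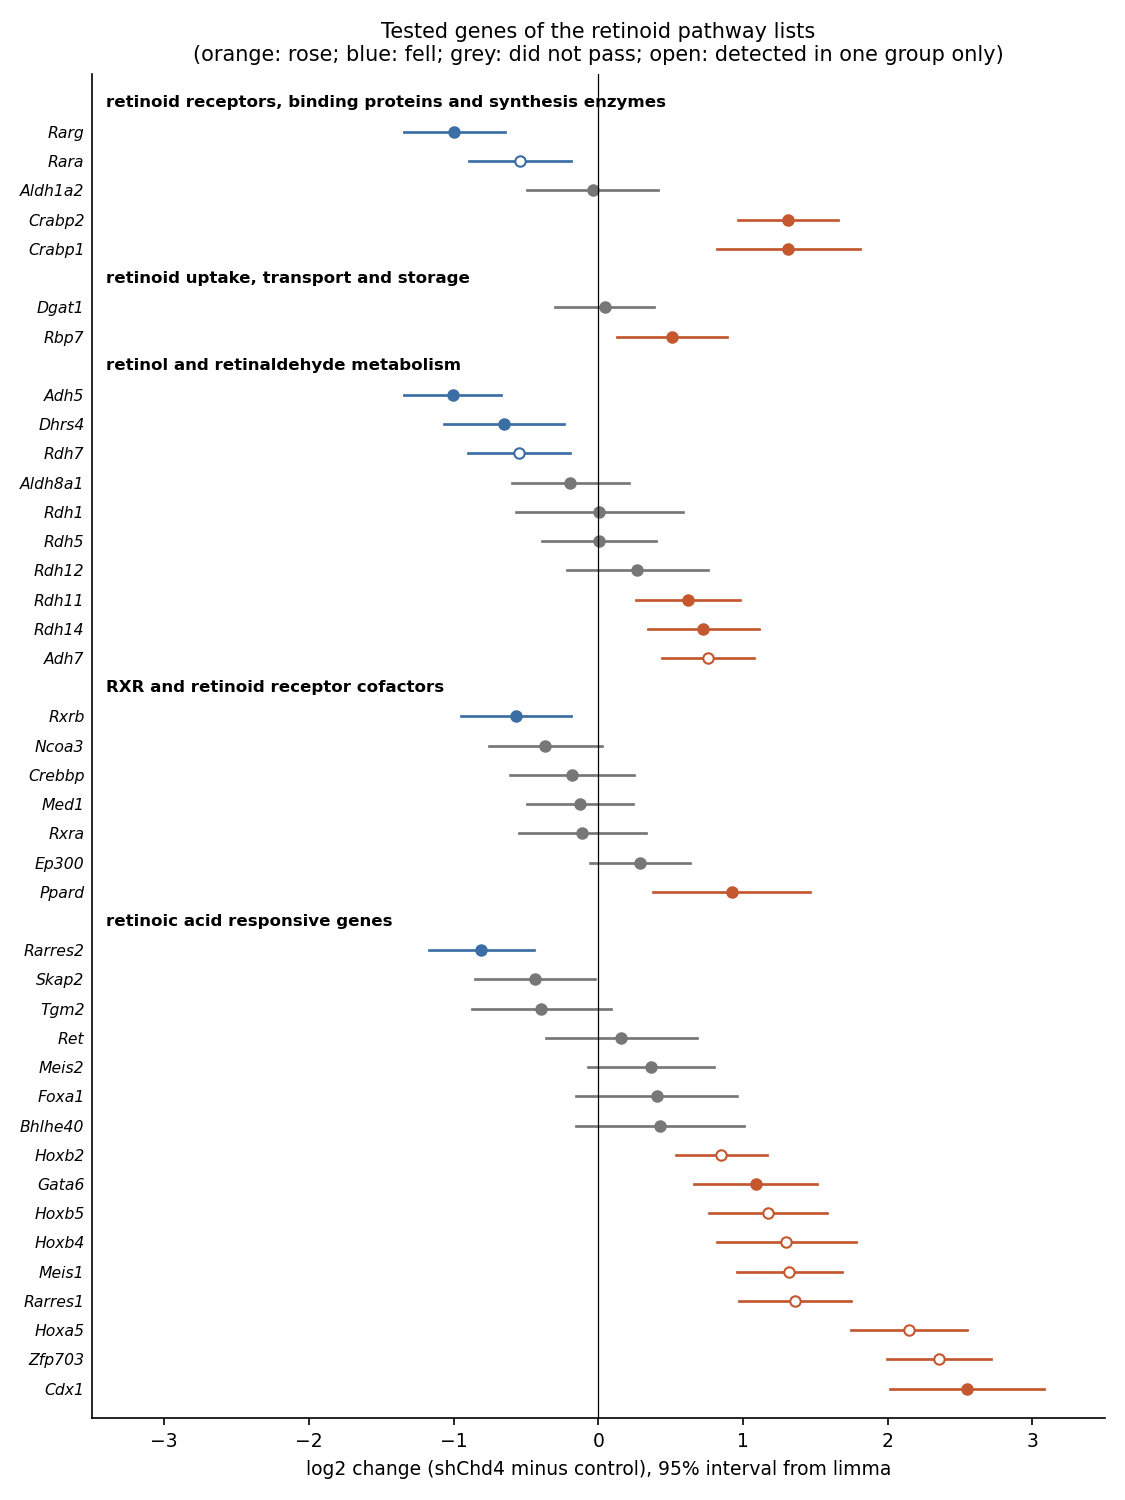
Log2 change (shChd4 minus control) with its 95% interval from limma for every tested gene of the retinoid lists, grouped by role; orange marks a rise, blue a fall, grey a gene that did not pass, and open symbols a gene detected in 1 group only. The binding protein genes lie above 1, the receptors Rarg, Rara and Rxrb below 0, and most of the largest rises among responsive genes have open symbols.

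Other cell types were followed on the same arrays with marker lists. Beside the counts of these lists stand 19.9% higher and 18.2% lower over all genes tested, with a median of -0.05. Of 17 tested fibroblast markers, 15 rose and 0 fell, with a median of 2.55. Without background correction and with the authors' deposited values 14 rose and the median was 1.28, and with no detection filter it was 1.65. Their mean level was 5.60 to 6.11 in the controls and 8.12 to 8.43 on the shChd4 arrays. Thbs2 rose by 4.57, Dcn by 5.39 and Twist2 by 2.89, and Lum was at least 8.64-fold higher on its brightest probe. A second Lum probe, detected on 3 arrays, differed by only 0.98, and a second Dcn probe by 4.16. Lum, Col1a1, Pdgfra, Pdgfrb and Col6a2 were detected on no control array, and could enter the test only by being higher after shChd4. Col3a1, Col5a2, Postn, S100a4 and Fap did not pass the detection filter. All 10 fibroblast markers detected on all 6 arrays rose, where 38% of all genes so detected passed in either direction. ES cell markers were all detected on all arrays; of 14, 7 fell and 0 rose, with a median of -0.71 and a mean level of 10.34 to 10.45 in controls and 9.52 to 10 after shChd4. Among them Fgf4 and Pou5f1 changed by -1.52 and -1.26, and Tcl1 and Zfp42 by -1.20 and -1.01.

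Markers of differentiated lineages were mostly undetected. Of 11 primitive endoderm markers, 5 were tested and 4 rose, with a median of 1.09: Amn by 1.87, Dab2 by 1.37, Gata6 by 1.09, and Sox7, detected on no control array, at least 1.36-fold. The median was 0.38 without background correction and with the authors' deposited values, 0.63 with an offset of 50 and 0.13 with no detection filter, with 3 genes passing in each. Of the 3 detected on all 6 arrays, 2 rose. The share that was higher over all genes tested was 19.9%. Gata4, Sox17, Foxa2, Cubn, Afp and Ttr did not pass the detection filter. Of 11 neural markers, Nes and Map2 were tested; Nes rose by 1.07 and Map2 gave -0.03.

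The retinoid genes can be set beside these markers array by array. On the control arrays the fibroblast mean was 5.60, 6.08 and 6.11, lowest on array 1, as Crabp1 was, while Crabp2 was highest there. On the shChd4 arrays the fibroblast mean was 8.36, 8.12 and 8.43, highest on array 3, where both Crabp1 and Crabp2 were lowest. The ES cell mean was 10.45, 10.42 and 10.34 on the control arrays, in the same order from array to array as Rarg. On the shChd4 arrays it was 9.57, 10 and 9.52, and Rarg was likewise lowest on array 3, while the highest value was on array 1 for Rarg and on array 2 for the ES cell mean. The primitive endoderm mean was 6.53, 6.89 and 6.26 there, lowest on array 3 like both binding protein genes. These orders rest on 3 arrays per group and on differences as small as that between 10.45 and 10.42, so nothing is concluded from them. The part that these cell types play in the changes of the retinoid genes was not tested.

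**Figure D4:**
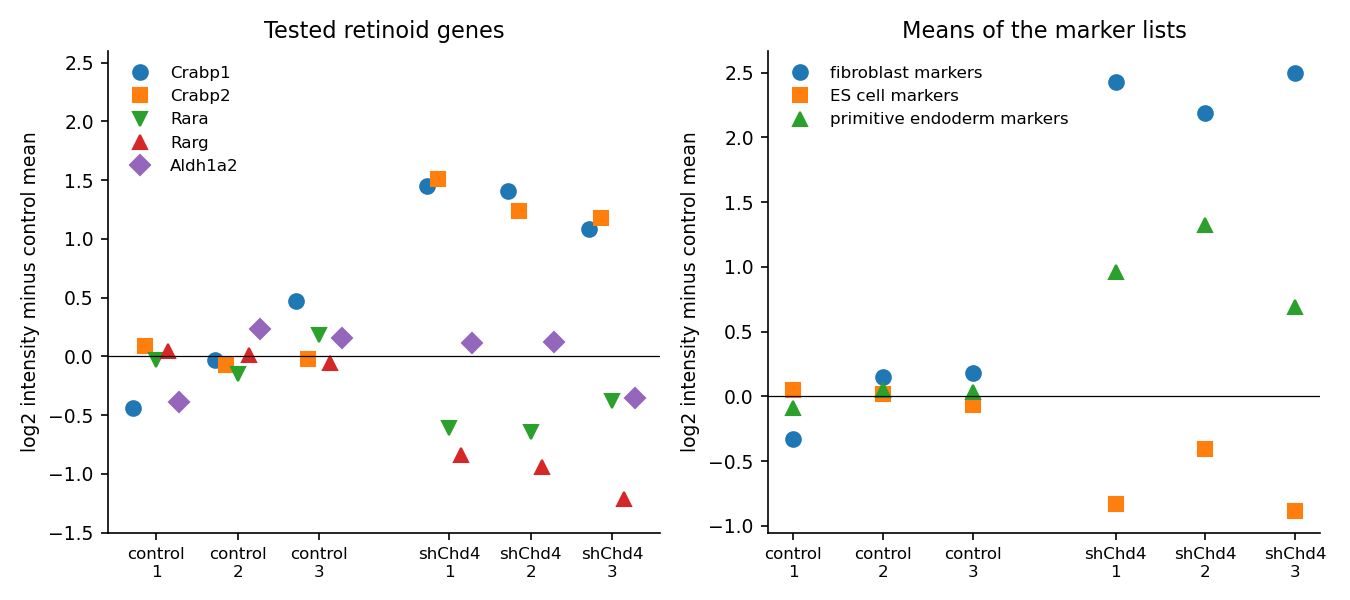
Log2 intensity minus the control mean on each of the 6 arrays, for the 5 tested retinoid genes (left, each gene shifted slightly sideways) and for the mean of each of 3 marker lists (right). Crabp1 and Crabp2 lie 1.08 to 1.51 above the control mean on the shChd4 arrays and Rarg 0.84 to 1.21 below it. The fibroblast mean is higher, and the ES cell mean lower, on every shChd4 array than on every control array.

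Genes with the most similar pattern were taken as the 3 with the smallest root mean square difference over the 6 arrays after subtracting each control mean. For Crabp2 these were Slco3a1, Cxcl14 and Coq10b, with differences of 0.06 to 0.08. Crabp1 was less closely matched, by BC034090, Bcl9l and Adssl1 at 0.11 to 0.14. The nearest to Rarg were Gtf3c2, Senp3 and Farsa at 0.06, and to Rara Ccdc88c, Txnip and Dnajc4 at 0.05 to 0.07. Aldh1a2 was nearest to Rasd2, 4930432K21Rik and Hexdc at 0.06 to 0.08. With 6 arrays in 2 groups this describes mainly the size of the change.

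**Figure D5:**
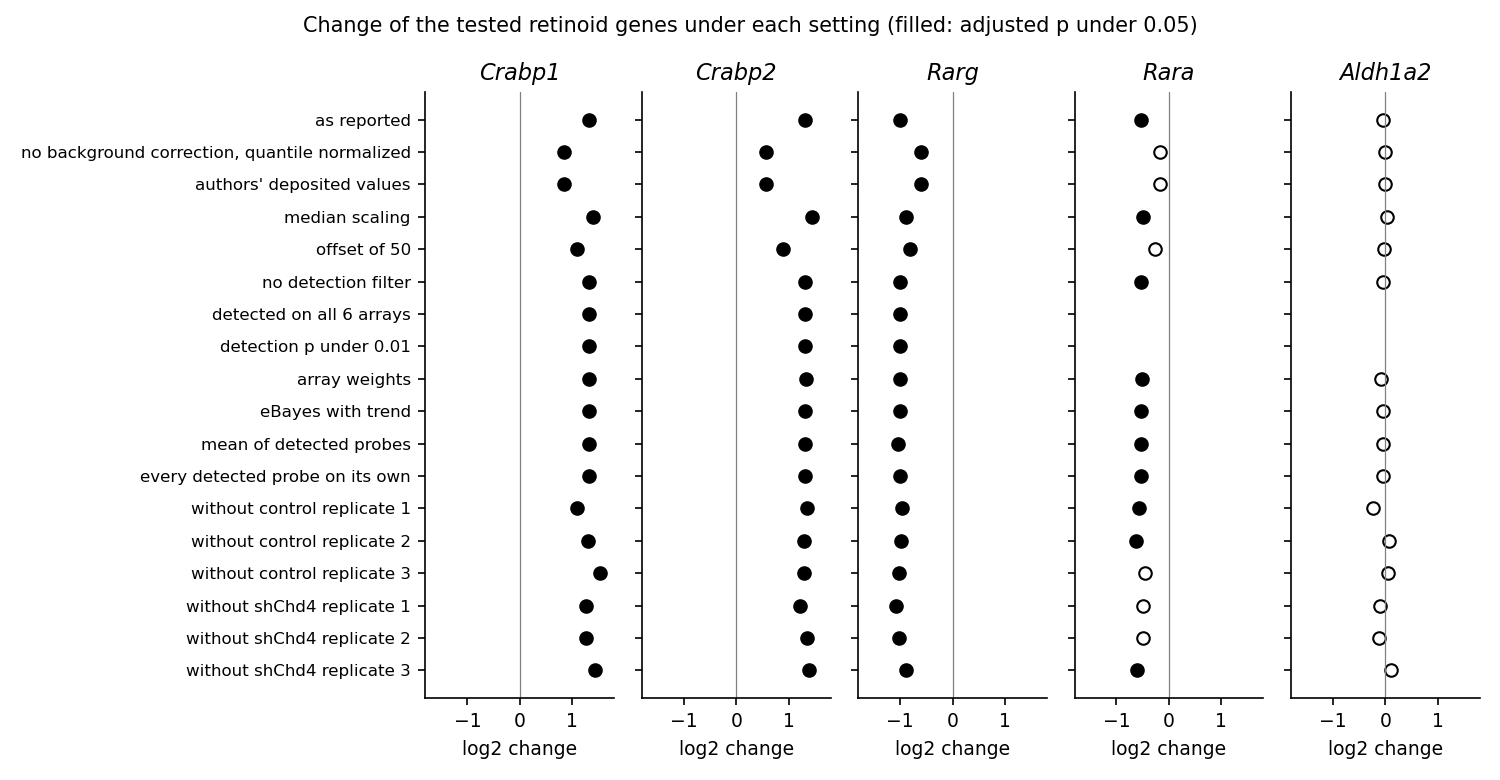
Log2 change of the 5 tested retinoid genes (columns) as reported and under each of 17 alternative settings (rows); filled symbols have a limma adjusted p under 0.05, and a missing symbol means that the gene was not tested there. Crabp1, Crabp2 and Rarg are filled in every row, Rara is open in 6 rows and Aldh1a2 is never filled.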

How the data were processed

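RNA of 3 control and 3 shChd4 arrays was analysed from 2 deposited tables. The first holds a linear intensity per probe together with its detection p-value, per the file headers; GenomeStudio is named in the submitters' processing notes, and array medians of 110.9 to 118.9 differ. The second, the authors' deposited intensity values, has nearly equal quantiles on all arrays (medians 115.16 to 115.19); the steps that made them are not stated in the labels or headers, and the values entered as an alternative. Normexp background correction, with its parameters estimated through the detection p-values and an offset of 16, was followed by quantile normalisation and log2 transformation (neqc, limma 3.58.1, R 4.3.3). Only probes with a single gene symbol were used. For 34807 of these 34885 probes the symbol was matched to RefSeq through its Entrez identifier, whether or not it changed. The brightest probe stood for its gene if detected (p under 0.05) on at least 3 arrays, and tested between the groups with lmFit and eBayes; p-values were adjusted by Benjamini-Hochberg over 9808 genes, with a threshold of 0.05. A gene detected on no array of 1 group is given as a bound. This is the difference of group means with undetected values raised to the lowest detected signal of their arrays. It takes no account of the spread between arrays. The bound holds only for the probe used and on the scale of the reported background correction and offset. The number of arrays limits the precision. The steps were tested on simulated data.

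The members and gene lists were chosen with earlier results of these data known. Named were the 9 members, Chd4, up to 4 passing genes with the smallest p of each list, the 3 nearest patterns of each tested member, and a fixed set of pathway genes whatever their values, of which some are not reported here; genes outside this rule (Rarres2, Tgm2, Meis2, Dhrs4, Rdh7, Dgat1, 4 co-activators, Map2, the DR5 genes and undetected markers) were chosen after their values were seen. Alternatives changed background, scaling, offset, filter, weights, variance prior, probe rule or left out 1 array.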

Additional observations from a re-analysis of the deposited data

How the results depend on the processing

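The count of all genes that passed ranged from 2865 to 5263 over 17 alternatives (2865 to 3575 with an array left out, 5263 with each probe tested on its own), against 3735 as reported, and the count of retinoid members from 3 to 4. Higher genes made up 45.2% to 56.5% of calls, the lowest with detection on all 6 arrays, against 52.1% as reported. With background left in, and with the authors' values, the changes were 0.85 and 0.85 for Crabp1, 0.57 and 0.57 for Crabp2 and -0.61 and -0.61 for Rarg, all still passing. Rara and Aldh1a2 were not tested with detection on all 6 arrays or at p under 0.01, because their probes no longer passed; the limma adjusted p of Rara ranged from 0.0178 to 0.133. Aldh1a2 gave -0.24 to 0.11 and never passed (limma adjusted p 0.407 to 0.959).

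The count of passing retinoid X receptor and cofactor genes was 1 with no detection filter and 0 to 2 with an array left out, against 2. That of uptake and storage genes was 0 with no filter and with a trended prior, and 0 to 1 with an array left out, against 1. That of retinol and retinaldehyde genes was 3 to 6 with an array left out, the lowest without control array 2, against 6. The responsive genes gave 2 with detection on all 6 arrays, since only 6 were then tested, and 10 to 11 with an array left out, against 10; their median was 0.32 without background correction and 0.17 with no filter, against 0.97. Of 136 list medians under alternatives, 34 moved by more than the spread between arrays; the causes were not tested. No paired analysis was possible because the labels carry no replicate numbers. The array and replicate numbers used here only follow the order of the samples in the series. Probes near background limit what can be said of Rara, Aldh1a2 and the 4 untested members.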
